A study of Mus musculus with 3 samples.

Results

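The genes described here are 32 targets of the transcription factor NRF2 and antioxidant enzymes, measured in RAW 264.7 macrophages that received lactobacilli and then LPS. They were taken by name: every gene probe on the array whose gene name is one of the 32 belongs to the set, which gave 54 of 56605 gene probes and 32 of the 26840 genes with a symbol. There were 3 one-colour microarrays, 1 for each of cells given LPS alone (LPS), cells given LPS after *L. rhamnosus* CRL1505 (CRL1505 + LPS), and cells given LPS after *L. plantarum* CRL1506 (CRL1506 + LPS). LPS, which stimulates TLR4, was used at 50 ng/mL in all conditions, and the lactobacilli at 50000000 cells/mL for 24 h before they were washed off. The design text of the series gives 12 h of LPS and the sample descriptions give 3 h. RAW 264.7 is a virus-transformed mouse macrophage line, and arrays of cells without LPS were not analysed here, so nothing below measures the response to LPS itself.

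NRF2, encoded by *Nfe2l2*, is held in the cytoplasm and marked for degradation by KEAP1 until oxidants or electrophiles modify KEAP1. It then enters the nucleus, pairs with small MAF proteins and binds antioxidant response elements, which raises the transcription of enzymes that make glutathione, reduce thioredoxin, break down heme and conjugate electrophiles. In macrophages, which produce superoxide, peroxide and nitric oxide when they meet bacterial products, these enzymes limit the damage to the cell itself.

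Since each condition has a single array, nothing was replicated or tested, and every value below is the difference between 2 arrays. A level is the log2 processed signal of a probe minus the 75th percentile of its array, and a log2 ratio is the difference of 2 levels. A gene is represented by its brightest probe, levels are compared within a probe only, and a gene is counted as higher or lower at 2-fold, which is a log2 ratio of 1. Among repeated spots of a probe, log2 ratios had a median SD of 0.048 for CRL1505 + LPS against LPS and 0.044 for CRL1506 + LPS against LPS. Between different probes of the same gene it was 0.229 and 0.216. Both describe the array and not biological variation. CRL1506 + LPS was hybridised on the slide of LPS and scanned with it, while CRL1505 + LPS was alone on its slide and in its run, so the effect of the CRL1505 strain and that of the slide cannot be told apart. That array was also dimmer, with 48.5% of gene spots well above background against 54.5% for LPS and 55.3% for CRL1506 + LPS. All 8 macrophage markers looked at were well above background on all arrays, but their levels differed. On the log2 scale against LPS, *Adgre1* was at 2.27 in CRL1505 + LPS and 1.003 in CRL1506 + LPS. *Csf1r* was at -1.47 and -0.87, and the other macrophage markers were short of 2-fold with either strain. Of the markers of other cell types, the T cell gene *Cd3e*, the neutrophil genes *S100a8* and *Mpo* and the epithelial gene *Epcam* were among those well above background in LPS. Of these, *S100a8* was at -1.31 and *Epcam* at a bound of -1.93 on the log2 scale in CRL1505 + LPS against LPS, while the neutrophil gene *S100a9* was higher there by a bound of 3.18. In CRL1506 + LPS against LPS, *Epcam* was at -1.39 and *Mpo* at 0.99. The fibroblast gene *Col1a1*, not well above background in LPS, was higher there by a bound of 1.85 from an uneven spot. The part of these genes in the results below was not tested. In these bulk samples, fewer cells that express a gene and less of its RNA per cell cannot be told apart.

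Where the promoter of a member was at hand, its letters were searched for the core of the antioxidant response element, TGACNNNGC, on both strands. RefSeq promoters on GRCm38.p6, from 250 bases before to 50 bases after a start, were matched to 26 of the 32 genes. The core was found in 7 of these 26 genes (26.9%) and in 14% of the 27025 genes with a promoter. The 7 sites are shown here because this is the sequence class that NRF2 is known to bind. The element is in capitals with 10 bases on each side, written along the strand of the gene.

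Nfe2l2: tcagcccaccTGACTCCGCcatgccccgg
Gclm: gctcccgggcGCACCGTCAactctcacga
Prdx1: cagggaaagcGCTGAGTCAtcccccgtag
Mgst1: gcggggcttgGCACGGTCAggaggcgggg
Txnrd1: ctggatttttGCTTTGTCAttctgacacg
Sod1: gccaaggtggGCGTGGTCAgactcaggcc
Srxn1: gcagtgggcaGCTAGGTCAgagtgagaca

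These windows lie at chr2:75704885-75704913 (minus strand, *Nfe2l2*), chr3:122245413-122245441 (*Gclm*), chr4:116685456-116685484 (*Prdx1*), chr6:138140461-138140489 (*Mgst1*), chr10:82859104-82859132 (*Txnrd1*), chr16:90220696-90220724 (*Sod1*) and chr2:152105542-152105570 (*Srxn1*), the last 6 on the plus strand. The centres of the sites lie between 236 bases before the start (*Nfe2l2*) and 33 bases after it (*Srxn1*). Only the *Nfe2l2* site reads TGACNNNGC along the gene, and the others hold it on the opposite strand. The AP-1 heptamer TGACTCA was found in 3 of the 26 genes (11.5%, against 5.95% of all genes), namely *Gstp1*, *Prdx1* and *Srxn1*. The *Prdx1* site is shown because the heptamer overlaps the antioxidant response element of that gene. In *Gstp1* and in the *Srxn1* site nearer to the start, the heptamer is on the opposite strand. Along the gene it reads TGAGTCA there and is followed by GC, and these sites are shown for that reason. TGAGTCAGC has TGAG where the core has TGAC, so it was not counted as the core.

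Gstp1: tccaacgtgtTGAGTCAgcatccgggg
Srxn1: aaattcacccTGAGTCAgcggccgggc
Prdx1: gggaaagcgcTGAGTCAtcccccgtag

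The windows of *Gstp1*, *Srxn1* and *Prdx1* lie at chr19:4037970-4037996 (minus strand), chr2:152105469-152105495 and chr4:116685458-116685484. A further motif, TGATGCAA, known from the amino acid response of stressed cells, was present in 1.03% of all genes with a promoter and in 1 of the 26, *Slc7a11*, which held it once on each strand. Of the 26 genes, *Slc7a11* also had the lowest log2 ratio in CRL1505 + LPS and *Gsto1* the highest, and the 250 bases before their starts are printed to set the ends of that range side by side. Capitals mark the TGATGCAA sites.

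Slc7a11: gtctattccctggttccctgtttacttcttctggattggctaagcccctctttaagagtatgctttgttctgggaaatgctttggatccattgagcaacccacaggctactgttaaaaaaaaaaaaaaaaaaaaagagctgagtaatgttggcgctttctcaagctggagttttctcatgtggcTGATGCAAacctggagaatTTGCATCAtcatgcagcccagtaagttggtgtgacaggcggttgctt
Gsto1: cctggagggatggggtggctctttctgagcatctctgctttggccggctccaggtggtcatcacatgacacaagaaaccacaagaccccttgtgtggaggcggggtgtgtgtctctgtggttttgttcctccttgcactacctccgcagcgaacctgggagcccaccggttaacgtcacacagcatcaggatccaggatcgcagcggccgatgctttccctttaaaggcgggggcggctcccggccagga

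They are chr3:50443614-50443863 on the minus strand and chr19:47854723-47854972 on the plus strand. None of the motifs searched was found in the *Gsto1* stretch, which says only that these letters are not there. Over the 7 genes with the antioxidant response element core, the median log2 ratio to LPS in CRL1505 + LPS was -0.48, and 5 were below 0. Over the 18 compared genes whose promoter windows held no exact match to it the median was 0.27, with 7 below 0 and 11 above. In CRL1506 + LPS these medians were -0.06 and -0.05. The 18 genes include *Slc7a11* and *Gstp1*, the former at the low end with CRL1505. The 6 members without a promoter here, *Gclc*, *Hmox1*, *Prdx6*, *Gsr*, *Gsta4* and *Sod3*, are in neither group. Of all 15603 genes compared with CRL1505, 7699 were below 0. No test stands behind this description, and a match in a promoter is not a bound site.

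The 32 genes did not move as a block with either strain. For CRL1505 + LPS against LPS, 29 genes could be compared, of which *Gsto1* and *Prdx5* were higher by 2-fold or more, while *Slc7a11*, *Gpx1* and *Mgst1* were lower by as much. The 2 higher genes are 6.9% of the 29, and the background is 9.93% of the 15603 genes compared. The 3 lower genes are 10.3%, against a background of 8.41%. In either direction the share was 17.2%, where that of all genes was 18.3%. The median log2 ratio was 0.01 for the 29 genes and 0.01 for all genes, and the median absolute log2 ratio was 0.44 and 0.41. Of the 29 ratios, 15 were above 0 and 14 below.

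For CRL1506 + LPS against LPS, 30 genes could be compared and 1, *Gsta4*, was past 2-fold, on the higher side. This is 3.33% of the 30 genes, beside a background of 5.67% higher, 3.53% lower and 9.2% in either direction among 16279 genes. The median log2 ratio was -0.05 for the members and -0.06 for all genes, and the median absolute log2 ratio was 0.17 against 0.26. In 24 of the 29 genes with both ratios, the ratio to LPS was further from 0 in CRL1505 + LPS than in CRL1506 + LPS. The same count over all genes was not made. The median absolute log2 ratio of all genes was also larger with CRL1505, at 0.41 against 0.26.

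When the strains were set against each other, 30 genes could be compared. *Gsto1* was at least 2-fold higher in CRL1505 + LPS, and *Slc7a11* and *Gsta4* were at least 2-fold lower, the last as a bound. The higher gene is 3.33% of the members, beside a background of 9.02%, and the lower genes are 6.67%, beside 7.47%. The median was 0.05 for the members and 0.03 for all genes. Each of these counts lies near or under its background.

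Most of these enzymes were abundantly measured. Of the 32 genes, 29 were well above background on all arrays, and *Nqo1* and *Sod3* were on none. *Gsta4* was well above background without CRL1505 but not in CRL1505 + LPS. None of the 32 representative probes had a spot that was marked as an outlier or was uneven.

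**Figure D1:**
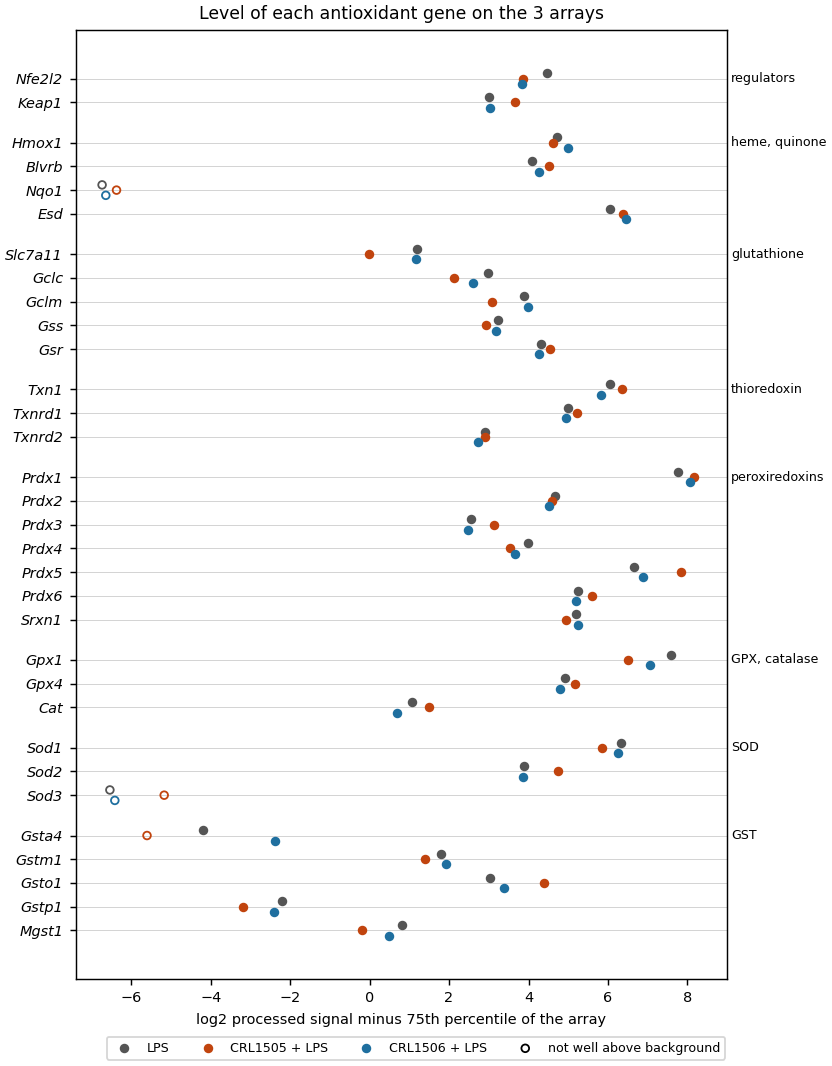
Level of each of the 32 genes on the 3 arrays, as log2 processed signal minus the 75th percentile of the array (x axis), with genes grouped by role (y axis). Filled points are well above background and open points are not; the points of a gene may be compared, but those of different genes may not. Among filled points of CRL1505 + LPS, those of *Gsto1* and *Prdx5* lie furthest to the right of LPS and those of *Slc7a11* and *Gpx1* furthest to the left, and *Nqo1* and *Sod3* are open on all arrays.

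Scaling each array by a single value moves all ratios together, while other normalizations move genes by different amounts. Each member was therefore also computed under 7 other scalings. No member stayed past 2-fold under all of them. In CRL1505 + LPS, 18 of 29 genes kept the sign of their ratio to LPS under every scaling, 8 above 0 and 10 below. In CRL1506 + LPS, 17 of 30 did so, 6 above 0 and 11 below. Ranges given below in the form "from ... to ..." are over these scalings. The median log2 ratio of all genes well above background on both arrays was 0.06 for CRL1505 + LPS, and it became 0.35 when arrays were aligned by their medians and -0.32 when they were aligned by their spike-in probes.

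**Figure D2:**
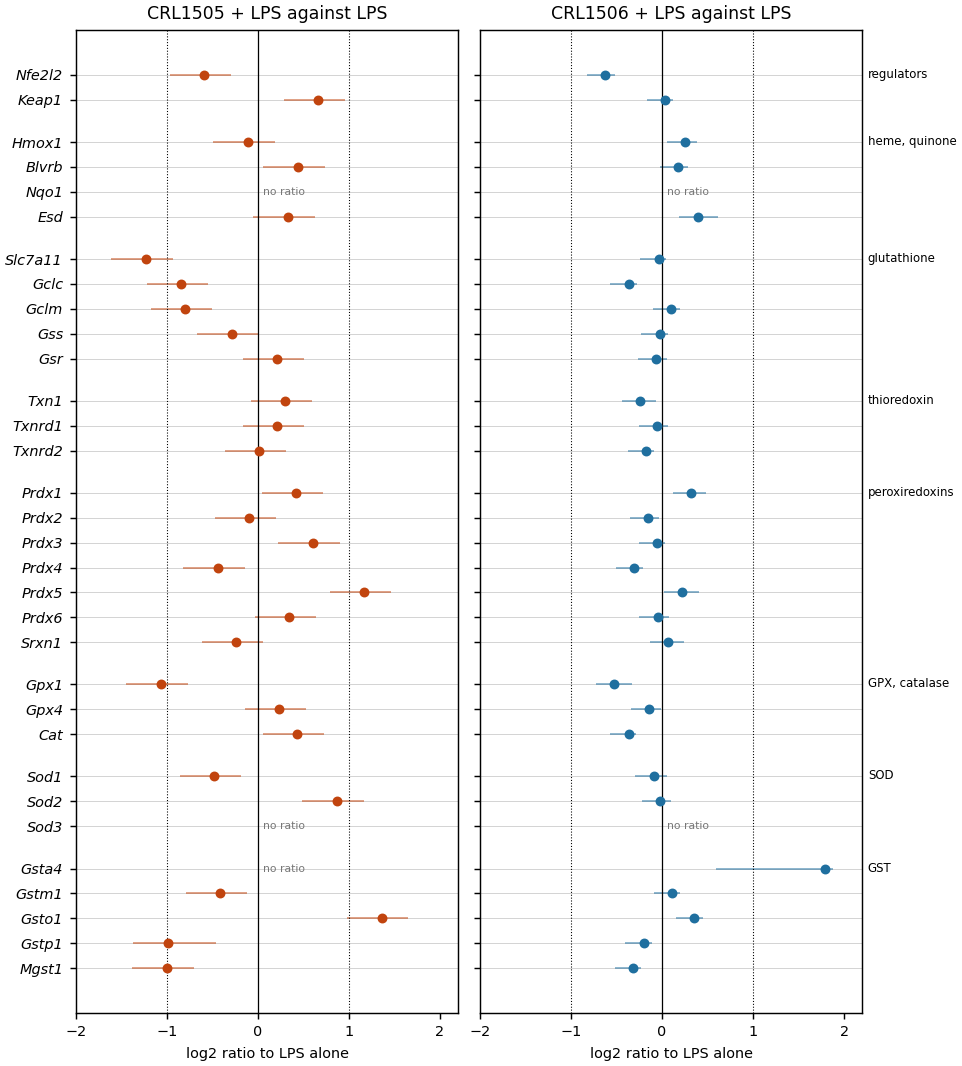
Log2 ratio to LPS of each gene (x axis) in CRL1505 + LPS on the left and in CRL1506 + LPS on the right, with genes by role (y axis); lines span the 7 other scalings and dotted lines mark 2-fold. In CRL1505 + LPS the points spread from -1.23 (*Slc7a11*) to 1.36 (*Gsto1*), while in CRL1506 + LPS all but *Gsta4* lie between -0.63 (*Nfe2l2*) and 0.39 (*Esd*).

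Of the regulators, *Nfe2l2* had levels of 4.46 in LPS, 3.87 in CRL1505 + LPS and 3.83 in CRL1506 + LPS, which is lower with both strains but by less than 2-fold. Its log2 ratio to LPS was -0.59 (from -0.97 to -0.30) with CRL1505 and -0.63 (from -0.83 to -0.52) with CRL1506, both set against the same LPS array. A second *Nfe2l2* probe, designed on a noncoding RefSeq transcript of the gene, gave -0.55 with CRL1505 but 0.11 with CRL1506, so the probes agree for the first strain and differ for the second. The representative *Nfe2l2* probe lies at chr2:75513771-75513830 and the noncoding one at chr2:75529291-75529350 on mm9. *Keap1*, the sensor that holds NRF2 back, had levels of 2.99, 3.65 and 3.02 in LPS, CRL1505 + LPS and CRL1506 + LPS. Its log2 ratio was 0.66 (from 0.28 to 0.96) with CRL1505 and 0.03 with CRL1506, so it stood above LPS in CRL1505 + LPS only by less than 2-fold.

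Among the heme and quinone enzymes no gene passed 2-fold. *Hmox1*, heme oxygenase 1 and a much used NRF2 reporter, had levels of 4.73 in LPS, 4.62 in CRL1505 + LPS and 4.98 in CRL1506 + LPS. Its log2 ratio of -0.11 with CRL1505 changed sign between scalings (from -0.49 to 0.18), and that of 0.26 with CRL1506 did not (from 0.05 to 0.39). *Blvrb*, biliverdin reductase B, was at 0.44 with CRL1505 and 0.18 with CRL1506. *Esd*, placed in this group although it is a hydrolase that releases glutathione from S-formylglutathione, was at 0.33 and 0.39. *Nqo1*, the quinone reductase that is often used to read NRF2 activity, gave no signal well above background, with processed signals of 6.96, 6.23 and 6.98 in LPS, CRL1505 + LPS and CRL1506 + LPS, and it has no ratio here.

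The genes of cystine import and glutathione synthesis lay on the low side in CRL1505 + LPS. *Slc7a11*, the cystine carrier of system xc-, had a level of 1.20 in LPS, -0.03 in CRL1505 + LPS and 1.16 in CRL1506 + LPS. LPS and CRL1506 + LPS were alike and CRL1505 + LPS stood apart, with a log2 ratio of -1.23 (from -1.61 to -0.93) for CRL1505 and -0.04 for CRL1506. A second *Slc7a11* mRNA probe gave -0.87 and -0.07. The probes lie at chr3:50176047-50176106 and chr3:50169700-50169759 on mm9. *Gclc* and *Gclm* encode the catalytic and the modifier subunit of glutamate-cysteine ligase, the rate-limiting enzyme of glutathione synthesis. *Gclc* had levels of 2.97, 2.12 and 2.60 in LPS, CRL1505 + LPS and CRL1506 + LPS, a log2 ratio of -0.84 (from -1.22 to -0.55) with CRL1505 and -0.37 (from -0.57 to -0.28) with CRL1506. *Gclm* had levels of 3.88, 3.08 and 3.98, a log2 ratio of -0.80 (from -1.18 to -0.50) with CRL1505 and 0.10 with CRL1506. Both subunits were thus lower than LPS in CRL1505 + LPS under every scaling, though short of 2-fold in the 75th percentile scaling.

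The later steps of glutathione metabolism differed less. *Gss*, glutathione synthetase, had log2 ratios of -0.29 with CRL1505 and -0.03 with CRL1506, and its second probe gave -0.50 and -0.11. *Gsr*, which reduces oxidised glutathione, had 0.21 and -0.06. Over the 5 genes of this group the median log2 ratio was -0.80 with CRL1505, where 4 were below 0, and -0.04 with CRL1506, where also 4 were below 0.

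The thioredoxin system stayed near LPS. *Txn1*, thioredoxin itself, had levels of 6.06, 6.36 and 5.82 in LPS, CRL1505 + LPS and CRL1506 + LPS, with log2 ratios of 0.30 and -0.24. The cytosolic thioredoxin reductase *Txnrd1* had 0.21 and -0.06, and the mitochondrial *Txnrd2* had 0.01 and -0.17. With CRL1505 all 3 changed sign between scalings.

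The peroxiredoxins, which reduce peroxides with the help of thioredoxin, spread widely around *Prdx5*. *Prdx5*, found in mitochondria, peroxisomes and cytosol, had levels of 6.66 in LPS, 7.83 in CRL1505 + LPS and 6.89 in CRL1506 + LPS. With CRL1505 it stood 1.17 (from 0.79 to 1.46) above LPS on the log2 scale, and with CRL1506 0.22 (from 0.02 to 0.40). The representative *Prdx5* probe is annotated to an Ensembl transcript only, and the RefSeq mRNA probe beside it gave 1.07 and 0.24, so the choice of probe made little difference. These probes lie at chr19:6981197-6981256 and chr19:6981371-6981430 on mm9. The mitochondrial *Prdx3* followed at 0.60 (from 0.22 to 0.90) with CRL1505 and -0.06 with CRL1506.

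The other peroxiredoxins lay on both sides of LPS and short of 2-fold. *Prdx1*, an abundant cytosolic form, had 0.42 with CRL1505 and 0.32 with CRL1506, and its other RefSeq mRNA probes ranged from 0.16 to 0.61 and from 0.36 to 0.56. *Prdx4*, the form of the endoplasmic reticulum, was lower, at -0.44 and -0.31. *Prdx2* was at -0.09 and -0.15. *Prdx6*, which uses glutathione in place of thioredoxin, was at 0.34 and -0.05, but its second mRNA probe gave -0.27 with CRL1505, so no direction can be given for that strain. *Srxn1*, the sulfiredoxin that restores over-oxidised peroxiredoxins and a known NRF2 target, was at -0.24 and 0.06, and both values changed sign between scalings.

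*Gpx1*, the cytosolic and mitochondrial glutathione peroxidase, had levels of 7.58 in LPS, 6.51 in CRL1505 + LPS and 7.05 in CRL1506 + LPS. It was lower than LPS with both strains, with log2 ratios of -1.07 (from -1.44 to -0.77) for CRL1505, past 2-fold, and -0.52 (from -0.72 to -0.33) for CRL1506. The CRL1505 value was also the lower of the strains under every scaling, by -0.54 (from -0.94 to -0.05). Its probe lies at chr9:108242276-108242335 on mm9. *Gpx4*, which reduces lipid peroxides in membranes, was at 0.24 and -0.14. *Cat*, catalase of the peroxisome, had levels of 1.05, 1.49 and 0.69, which places it above LPS in CRL1505 + LPS, at 0.43 (from 0.05 to 0.73), and below it in CRL1506 + LPS, at -0.37 (from -0.57 to -0.28).

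The superoxide dismutases turn superoxide into peroxide. The mitochondrial *Sod2*, which is known to be induced by NF-kappaB, had levels of 3.88 in LPS, 4.75 in CRL1505 + LPS and 3.86 in CRL1506 + LPS. Its log2 ratio was 0.87 (from 0.49 to 1.16) with CRL1505 and -0.02 with CRL1506. The cytosolic *Sod1* had levels of 6.34, 5.85 and 6.25, with log2 ratios of -0.48 (from -0.86 to -0.19) and -0.09. A second, dim *Sod1* probe gave -0.34 with CRL1505. *Sod3*, the secreted form, also gave no signal well above background, with processed signals of 7.98, 14.3 and 8.16 in LPS, CRL1505 + LPS and CRL1506 + LPS.

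The glutathione S-transferases lay on both sides of LPS in CRL1505 + LPS. *Gsto1*, an omega-class enzyme that also reduces dehydroascorbate, had levels of 3.02 in LPS, 4.38 in CRL1505 + LPS and 3.37 in CRL1506 + LPS. Its log2 ratio was 1.36 (from 0.98 to 1.65) with CRL1505, the highest among the compared genes of the set, and 0.35 (from 0.15 to 0.45) with CRL1506. The second *Gsto1* probe gave 1.14 and 0.22. These probes lie at chr19:47939128-47939187 and chr19:47938849-47938908 on mm9. *Mgst1*, the membrane-bound microsomal form, had levels of 0.81, -0.19 and 0.49 in LPS, CRL1505 + LPS and CRL1506 + LPS. Its log2 ratio was -1.003 (from -1.38 to -0.71) with CRL1505 and -0.32 (from -0.52 to -0.23) with CRL1506, and the second probe gave -1.01 and -0.50. *Mgst1* is the member just inside 2-fold, and *Gstp1*, the pi-class enzyme, at -0.99 (from -1.37 to -0.46), is the one just outside.

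*Gstp1* had processed signals of 160.6, 56.3 and 131.2 in LPS, CRL1505 + LPS and CRL1506 + LPS, and its probe may share target with its near-identical neighbour *Gstp2*, whose probe had an outlier spot in CRL1505 + LPS and gave no ratio there. *Gstm1*, of the mu class, was at -0.42 with CRL1505 and 0.11 with CRL1506. The brightest *Gstm1* probe is placed on chromosome 5 by the files and the other on chromosome 3, where it gave -0.66 and -0.16, and the mu-class genes resemble each other closely, so these values may not belong to *Gstm1* alone. *Gsta4*, of the alpha class, lay near the background, with processed signals of 40.7 in LPS, 10.6 in CRL1505 + LPS (too dim to count as detected) and 132.6 in CRL1506 + LPS. Its log2 ratio with CRL1506 was 1.79, but it was 0.59 under 1 of the other scalings. No ratio to LPS can be given with CRL1505, since the LPS level lies below the lowest level that is well above background on that array.

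Where a gene had several probes, they served as a check on the measurement, though not on the biology. With CRL1505, 13 genes had at least 2 probes measured on both arrays, and in 10 of them all probes had the same sign. With RefSeq mRNA probes only, this was so for 8 of 10 genes, the exceptions being *Prdx6* and *Txnrd2*. With CRL1506, 9 of 14 genes had probes of the same sign, and 9 of 10 with RefSeq mRNA probes only.

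**Figure D3:**
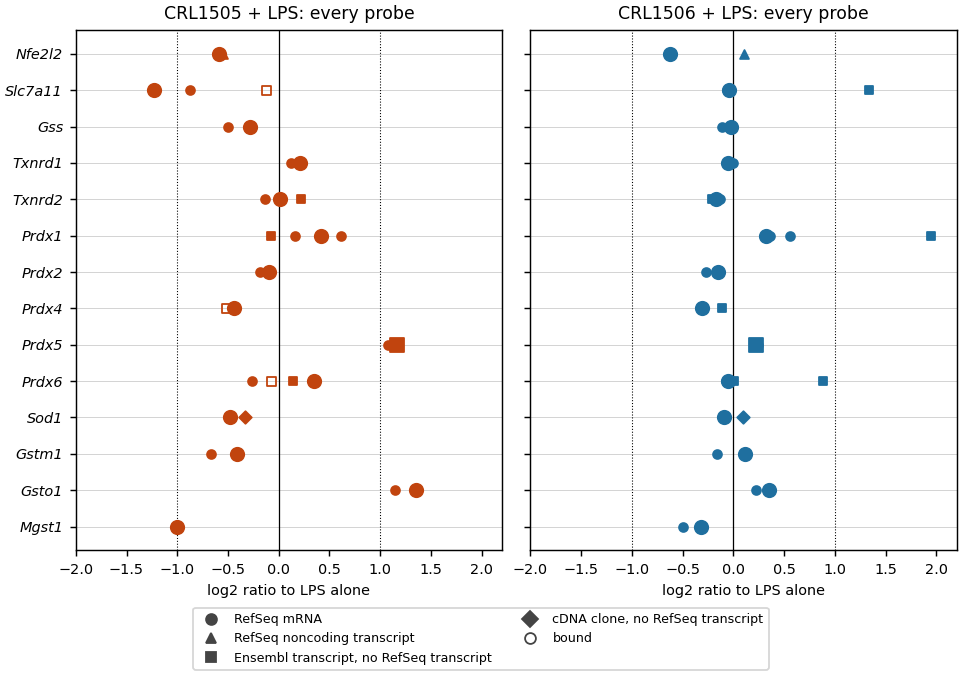
Log2 ratio to LPS (x axis) of every probe of the 14 genes with several probes (y axis), for CRL1505 + LPS on the left and CRL1506 + LPS on the right. Large symbols are the representative probes, shapes give the transcript a probe is annotated to, and open symbols are bounds. The probes of *Gsto1*, *Prdx5* and *Mgst1* lie close together, while the Ensembl-only probes of *Prdx1*, *Prdx6* and *Slc7a11* lie to the right of their mRNA probes in CRL1506 + LPS.

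Between the strains, the genes that stood highest in CRL1505 + LPS over CRL1506 + LPS were *Gsto1* at 1.01 (from 0.72 to 1.503), *Prdx5* at 0.94 (from 0.65 to 1.44) and *Sod2* at 0.89 (from 0.61 to 1.39) on the log2 scale. *Cat* was at 0.80 (from 0.52 to 1.30). The lowest, apart from the bound of -1.73 for *Gsta4*, were *Slc7a11* at -1.19 (from -1.47 to -0.70), *Gclm* at -0.90 (from -1.18 to -0.40) and *Gstp1* at -0.79 (from -1.07 to -0.29). *Nfe2l2* was at 0.03 (from -0.25 to 0.53), and *Hmox1* was at -0.37 (from -0.66 to 0.13).

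Other genes of these pathways were taken as lists. Of 26 further genes of the NRF2 pathway, 25 were compared in each strain. This list, too, was chosen with earlier results of these data known. With CRL1505, 1 passed 2-fold upwards (4%, beside 9.93% of all genes) and 5 downwards (20%, beside 8.41%). With CRL1506 none was past 2-fold, beside 9.2% of all genes. The lower ones were *Osgin1*, an oxidative stress-induced growth inhibitor, at -2.39 (from -2.77 to -1.94), and the carbonyl reductase *Cbr3* at -1.61 (from -1.99 to -1.32). With them were the heme transporter *Slc48a1* at -1.10 (from -1.48 to -0.80) and the epoxide hydrolase *Ephx1* at -1.08 (from -1.46 to -0.79). *Gpx2* was also counted as lower, by a bound of -1.03 (from -1.41 to -0.37). *Gpx2* was not well above background in CRL1505 + LPS and entered this comparison only through LPS. The higher one was *Mafk*, a small MAF partner of NRF2, at 1.01 (from 0.63 to 1.30). The levels of *Osgin1* were 0.50 in LPS, -1.88 in CRL1505 + LPS and -0.06 in CRL1506 + LPS, and those of *Cbr3* were 1.70, 0.09 and 1.55. The median of the list was -0.10 with CRL1505 and -0.10 with CRL1506, beside 0.01 and -0.06 over all genes. The ferritin genes *Fth1* and *Ftl1*, also known NRF2 targets, were at 0.31 (from -0.07 to 0.61) and 0.10 (from -0.28 to 0.39) with CRL1505. Both changed sign between scalings.

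Of 19 other antioxidant genes, 15 were compared, and the methionine sulfoxide reductase *Msrb2*, at -1.05 with CRL1505, was the only one past 2-fold with either strain. It makes 6.67% of the list lower, beside 8.41% of all genes. Of 26 other glutathione genes, 20 were compared with CRL1505, and *Gstt1* at 1.5 (from 0.91 to 1.80), *Gsto2* at 1.28 (from 0.75 to 1.58) and *Gsta2*, as a bound of 2.63 from an uneven spot, were higher. These are 15% of the list, beside 9.93% of all genes. *Gsta2* was not well above background in LPS and entered this comparison only through CRL1505 + LPS. *Gsto2*, of the same class as *Gsto1*, was dim, with processed signals of 119.5, 202.2 and 113.5 in LPS, CRL1505 + LPS and CRL1506 + LPS. *Gstt1* was dimmer still, at 88.3, 173.8 and 86.4 in the same order. With CRL1506, *Gsta3* alone among 23 was past 2-fold, with processed signals of 174.3 in LPS, 163.4 in CRL1505 + LPS and 1409 in CRL1506 + LPS, a log2 ratio of 3.105 (from 2.67 to 3.19). It makes 4.35% of the list higher, beside 5.67% of all genes. *Gsta3*, like *Gsta4*, is an alpha-class transferase.

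Of 13 genes whose products make oxidants, 5 passed 2-fold upwards with CRL1505 (38.5%, beside 9.93% of all genes) and 1 downwards (7.69%, beside 8.41%). The list was chosen with earlier results of these data known. Among the 5, *Duox1* and *Duox2* entered the comparison only because they were well above background in CRL1505 + LPS. None of the 11 compared with CRL1506 was past 2-fold, beside 9.2% of all genes. *Nos2*, the inducible nitric oxide synthase, had levels of 2.24 in LPS, 5.64 in CRL1505 + LPS and 1.55 in CRL1506 + LPS, a log2 ratio of 3.40 (from 3.02 to 3.69) with CRL1505 and -0.70 with CRL1506. *Cybb*, the catalytic subunit of the phagocyte NADPH oxidase, was at 1.12 (from 0.75 to 1.42) and -0.25, and xanthine dehydrogenase *Xdh* was at 1.12 (from 0.74 to 1.41) and 0.22. *Duox1* and *Duox2* were well above background in CRL1505 + LPS only, with bounds of 2.33 and 2.49, and *Nox1* had a bound of -1.08.

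**Figure D4:**
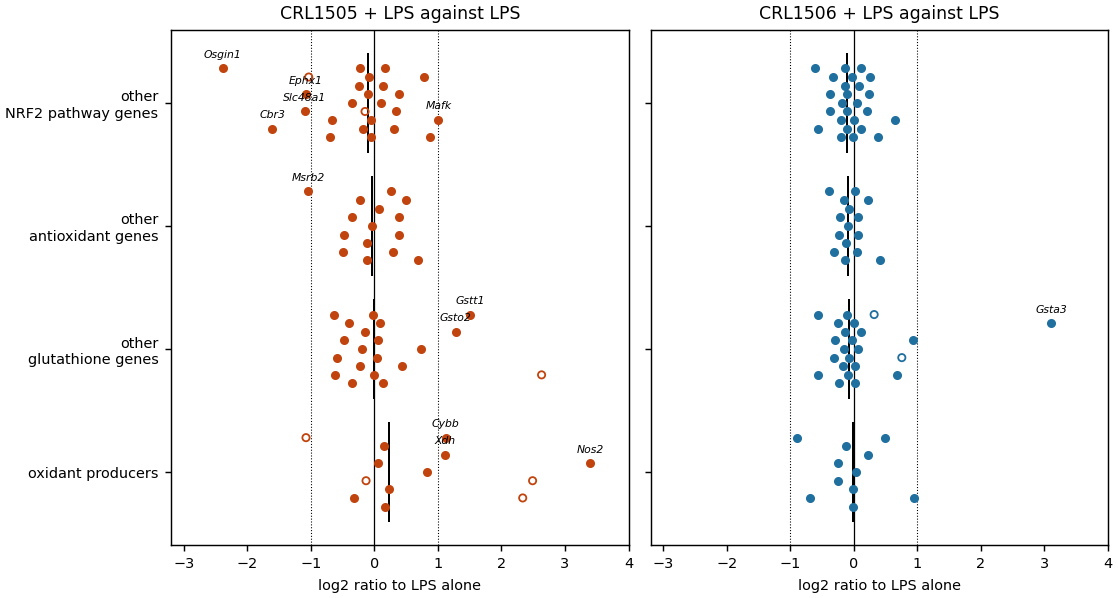
Log2 ratio to LPS (x axis) of the compared genes of 4 further lists (y axis) in CRL1505 + LPS on the left and CRL1506 + LPS on the right; points are genes with vertical position within a list arbitrary, open points are bounds, black bars are list medians and dotted lines mark 2-fold. *Nos2* at 3.40 and *Osgin1* at -2.39 are the extremes with CRL1505, and *Gsta3* at 3.105 stands alone with CRL1506.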

How the data were processed

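RNA of RAW 264.7 cells was hybridised in 1 colour (Cy3) to SurePrint G3 Mouse GE arrays, 1 for each of 3 conditions. The authors deposited the scanner output of each array, in which the processed signal is a background-subtracted intensity, not normalized between arrays (Feature Extraction 12.0.3.1 in the files). A further table deposited by the authors holds log2 values normalized between arrays, with a median of 6.77 on each array, which was used as an alternative. The submitters' processing notes name limma, and the methods name both GeneSpring and limma.

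The log2 intensity of each of 59305 gene spots was shifted by the 75th percentile of its array, which was a signal of 743.1 in LPS, 697.9 in CRL1506 + LPS and 517.0 in CRL1505 + LPS. Outlier spots were left out, no gene spot was saturated, repeated spots were averaged, and a gene was its brightest probe. A gene with 1 side not well above background was given as a bound, set by the lowest signal well above background on that array or by its own signal if higher, and a gene dim on both sides was left out. The number of arrays limits the precision, so no p-value was computed and 2-fold was used as the threshold. Whether replicate cultures were pooled is not given in the sources used here.

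The members and lists were chosen with earlier results of these data known. All members are named. Of the other lists, genes were named if they were 2-fold from LPS in either strain, well above background on both arrays and 1.5-fold the same way under every scaling. *Gpx2*, *Gsta2*, *Duox1*, *Duox2*, *Nox1*, *Fth1*, *Ftl1* and *Gstp2* fall outside this rule and were added after their values were seen. Of the marker genes on the arrays, 1 of 3 for T cells was well above background on each array, 2 or 3 of 4 for neutrophils, and at most 1 of 3 for fibroblasts and 1 of 4 for epithelium. Their summed processed signals over the arrays were 554.3 to 899.1 for T cells, 729.7 to 1675.3 for neutrophils, 30.5 to 131.8 for fibroblasts and 36.2 to 233.1 for epithelium. These sums are of unscaled signals and were each lowest in CRL1505 + LPS, the dimmest array. The macrophage sum was 529333.6 in LPS, 349460.5 in CRL1505 + LPS and 398320.3 in CRL1506 + LPS. A further marker list, of which 1 gene was well above background on each array, is not reported here.

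Normexp (offset of 50), quantile and cyclic loess normalization were run in limma 3.58.1 (R 4.3.3), and all else in Python 3.11.15 (pandas 2.3.3, NumPy 2.4.6), after a test on simulated data. The files place probes on mm9, and promoters are from RefSeq on GRCm38.p6. Exons, introns and protein sequences were not used here. In all, 14 alternatives were tried.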

Additional observations from a re-analysis of the deposited data

How the results depend on the processing

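No paired analysis was possible because each condition has 1 array, and for the same reason no array could be left out. No called ratio of a member reversed. With CRL1505, aligning arrays by their medians left 0 members 2-fold lower and moved the median log2 ratio to 0.31, while spike-in scaling left 0 higher and 6 lower with a median of -0.34. The all-gene shares moved too, to 16% higher and 5.03% lower under the former and 5.83% and 15.6% under the latter. Normexp and the deposited log2 table each left 2 members lower, where all genes had 4.48% and 4.9%. The 75th percentile over probes well above background on all arrays gave 4 lower, where all genes had 9.95%. The mean over probes left 2 lower and moved *Slc7a11* from -1.23 to -0.74. A threshold of 1.5-fold gave 5 higher and 7 lower, without an all-gene share at 1.5-fold to set beside them. With CRL1506, 0 members were 2-fold higher under normexp, in the deposited log2 table and among probes well above background on all arrays, since *Gsta4* was no longer counted. The 1.5-fold threshold added 1 lower, *Nfe2l2*. For CRL1505 + LPS against CRL1506 + LPS, median scaling gave 7 higher, 1 lower and a median of 0.54, and spike-in scaling 0 higher and 4 lower, where all genes had 23.6% and 2.91%, and 5.82% and 13.3%. *Gsto1*, close to the threshold, was no longer counted, which left 0 higher, under the 75th percentile over probes well above background on all arrays, quantile normalization, cyclic loess, the deposited table and the mean over probes. Without a filter on dim probes 2 were higher. Only 1 was lower under normexp and among probes well above background on all arrays, and 1.5-fold gave 6 higher and 5 lower. The counts and medians were the same with outlier spots kept and with uneven spots left out. Removing the trend on probe GC left 2 lower with CRL1505 and moved the median between the strains from 0.05 to -0.05. All-gene shares were not counted for the 1.5-fold threshold, the mean over probes, the filters on dim probes or the GC trend. Member counts under those settings therefore have no background beside them. Relative to the median of all genes, that of the members with CRL1505 lay between -0.13 and -0.02 under all scalings. Genes near background, such as *Gsta4* and *Gstp1*, are those that the signal limits most.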

Other observations

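Some probes of the members that are annotated to Ensembl transcripts without a RefSeq transcript behaved unlike the mRNA probes of the same gene in CRL1506 + LPS. For *Prdx1* such a probe at chr4:116358559-116358618 (mm9) had processed signals of 144.9 in LPS, 95.8 in CRL1505 + LPS and 525.6 in CRL1506 + LPS, a log2 ratio to LPS of 1.95 with CRL1506, where the mRNA probes lay between 0.32 and 0.56. For *Slc7a11* a probe at chr3:50246786-50246845 had signals of 46.4, 6.31 and 110.4, a log2 ratio of 1.34 with CRL1506, where the mRNA probes were at -0.04 and -0.07. For *Prdx6* a probe at chr1:163179092-163179151 had signals of 114.5, 87.8 and 197.8, a log2 ratio of 0.88 with CRL1506, where the mRNA probes were at -0.05 and -0.07, and another Ensembl-only probe of *Prdx6* was at 0.01. In *Prdx4*, *Prdx5* and *Txnrd2* the Ensembl-only probes measured with CRL1506 lay at -0.11, 0.22 and -0.21, beside -0.31, 0.24 and -0.17 for an mRNA probe of each gene. These probes were singled out after their values were seen, each rests on 1 array per condition, and the transcripts they detect were not identified here.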
